A study of Mus musculus with 20 samples.

Results

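Genes can be transcribed from promoters that hold little of the histone mark of active starts, trimethylation of histone H3 at lysine 4 (H3K4me3). Such promoters were described in cultured mouse germline stem cells (GSCs). A promoter is represented by 1 window per gene in the deposited chromatin table. A window was a member when H3K4me3 over the same-numbered input was at least 1.5 on the log2(RPM + 0.5) scale in both control libraries, RPM being reads per 1000000 mapped reads. H3K27me3 over input had to be under 1 in at least 1 control and at least 1 knockout library, the mean log2 RPM of control H3K4me3 under 3.5 (11.3 RPM), and the mean log2 RPM of control RNA at least 0 (1 RPM). The rule found 1160 windows of 25965, or 4.47%. The same rule with control H3K4me3 of 3.5 or more found 9362 windows, called strong-mark promoters here. Levels of control H3K4me3, input, H3K27me3 and control RNA are the values the members were chosen by, and they are given as descriptions.

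Knockout cells (Kmt2b FC/FC) were Kmt2bF/F; Rosa26-CreERT2 GSCs exposed to 4-hydroxytamoxifen (4-OHT) at 1 μM, and control cells (Kmt2b F/F) were the same GSCs given ethanol. Both groups carried Rosa26-CreERT2, a Cre recombinase that 4-OHT activates, were grown on fibroblast feeder cells and were harvested 6 days after treatment. Knockout and 4-OHT exposure went together and cannot be told apart. H3K4me3, H3K27me3, input and RNA each had 2 knockout and 2 control libraries. H3K9me3 was measured in 2 libraries of control cells beside 2 separate inputs, prepared with the ThruPLEX kit and not the NEBNext kit of the rest. The treatment and harvest day of those cells are not given in the sources used here. Nothing given here states that libraries of a group came from separate cultures, so p-values measure the spread between these libraries.

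As background, H3K4me3 marks the start of most active genes, and the level follows both transcription and the density of CpG dinucleotides, which CXXC-domain proteins bind when unmethylated. KMT2B is a methyltransferase of this mark that has such a domain. GSCs derive from spermatogonial stem cells, male germ cells with 1 X chromosome that express many germline genes of the X.

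H3K4me3 depth was 3830045 and 16578722 mapped reads in the knockout libraries, against 10360152 and 18035122 in the control libraries, and the other libraries held 10538531 to 63537169. The median member had 17 and 107 H3K4me3 reads in the knockout libraries, against 76 and 164 in the control libraries, so knockout replicate 1 gave the coarsest values and 6 members had no read in it. RNA of Kmt2b, listed as Wbp7, was at 131 and 185 RPM in knockout cells and at 142 and 150 RPM in control cells. The table gives 1 value per gene and the deleted part is not given in the sources used here, so this does not check the labels. Germ cell markers such as Ddx4 and Dazl were on a list of 20 genes whose summed RNA was 4377 and 4835 RPM in knockout cells and 4798 and 4746 RPM in control cells. A list of 41 fibroblast genes, for the feeder cells, summed to 859 and 1065 RPM in knockout cells and to 765 and 803 RPM in control cells. Of the fibroblast genes, 39 were tested in RNA, 5 were called higher, against a background of 3.01% of genes, and 0 lower, against 0.312%, and none was without reads in every library. The part of feeder RNA in the results below was not tested, and in bulk libraries a change in the share of feeder cells and a change of RNA per cell cannot be told apart.

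The promoters of 8 members show the range of sequence among weak-mark promoters. They are the 4 with the fewest and the 4 with the most CpG among the 20 members that are named below for their RNA or H3K4me3 and have a RefSeq promoter. Each is the 200 bases before the RefSeq start in GRCm38.p6, written 5′ to 3′ on the gene's strand, with CpG in capitals. The fewest stood at Kirrel2 (chr7:30457516-30457715, minus strand) and Trim54 (chr5:31116412-31116611, plus strand) with 2 each, at 4930502E18Rik (chrX:53724631-53724830, plus strand) with 3, and at Gja1 (chr10:56377100-56377299, plus strand) with 5.
Kirrel2: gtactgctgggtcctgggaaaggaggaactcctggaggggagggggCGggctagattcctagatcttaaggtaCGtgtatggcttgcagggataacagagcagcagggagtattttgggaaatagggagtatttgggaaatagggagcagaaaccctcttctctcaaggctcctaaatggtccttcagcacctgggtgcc
Trim54: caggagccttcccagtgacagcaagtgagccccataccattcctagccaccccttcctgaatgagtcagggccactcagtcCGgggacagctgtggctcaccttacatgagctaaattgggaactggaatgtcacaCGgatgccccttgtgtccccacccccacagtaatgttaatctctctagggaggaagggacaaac
4930502E18Rik: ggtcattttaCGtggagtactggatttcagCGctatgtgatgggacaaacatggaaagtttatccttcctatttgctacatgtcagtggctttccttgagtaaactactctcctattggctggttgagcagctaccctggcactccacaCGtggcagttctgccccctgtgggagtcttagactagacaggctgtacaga
Gja1: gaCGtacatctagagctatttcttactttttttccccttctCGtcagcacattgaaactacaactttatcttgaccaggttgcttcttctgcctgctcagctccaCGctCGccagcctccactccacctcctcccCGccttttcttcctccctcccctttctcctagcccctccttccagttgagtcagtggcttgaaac

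The most stood at Coq2 (chr5:100674257-100674456, minus strand) with 15, Sdc4 (chr2:164443189-164443388, minus strand) with 17, Mrpl45 (chr11:97315516-97315715, plus strand) with 18 and Zic1 (chr9:91365769-91365968, minus strand) with 24. The RefSeq start lay 884 bases from the start the deposited table gives for Coq2 and 699 bases from that of Sdc4, against 0 for Mrpl45 and 42 for Zic1.
Coq2: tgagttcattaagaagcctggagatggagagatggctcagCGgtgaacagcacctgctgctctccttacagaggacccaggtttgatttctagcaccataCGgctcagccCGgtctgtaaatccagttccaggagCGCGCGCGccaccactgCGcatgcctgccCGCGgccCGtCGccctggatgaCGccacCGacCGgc
Sdc4: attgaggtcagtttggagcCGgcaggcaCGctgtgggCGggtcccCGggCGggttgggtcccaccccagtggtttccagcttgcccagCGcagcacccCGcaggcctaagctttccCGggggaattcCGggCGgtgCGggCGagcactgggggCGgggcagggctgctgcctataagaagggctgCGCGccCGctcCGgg
Mrpl45: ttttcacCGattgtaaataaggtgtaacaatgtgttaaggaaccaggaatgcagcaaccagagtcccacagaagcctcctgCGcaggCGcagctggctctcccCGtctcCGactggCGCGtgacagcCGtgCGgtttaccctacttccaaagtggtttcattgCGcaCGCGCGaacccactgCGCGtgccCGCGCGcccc
Zic1: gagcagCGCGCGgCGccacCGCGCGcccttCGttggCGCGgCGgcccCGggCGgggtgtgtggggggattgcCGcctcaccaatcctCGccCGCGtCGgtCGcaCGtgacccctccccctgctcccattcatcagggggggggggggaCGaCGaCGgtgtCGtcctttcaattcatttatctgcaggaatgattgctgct

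Weak-mark promoters held fewer CpG than strong-mark promoters. RefSeq starts lay within 1000 bases of the start in the deposited table for 805 of the 1160 members and 7339 of the 9362 strong-mark promoters. Over the 250 bases before and 50 after the start, members held a median of 11 CpG (quartiles 8 and 18), and strong-mark promoters a median of 23 (17 and 31). At most 5 CpG were found at 113 members, or 14%, and at 59 strong-mark promoters, or 0.804%. The median GC content was 55% in members and 62.7% in strong-mark promoters. Within the members, CpG went with the level of the mark. The median count was 8 at a control H3K4me3 of log2 RPM 1 to 2, 10 at 2.5 to 3, and 15 at 3.25 to 3.5. These are descriptions over windows, since the level of the mark chose both groups.

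**Figure D1:**
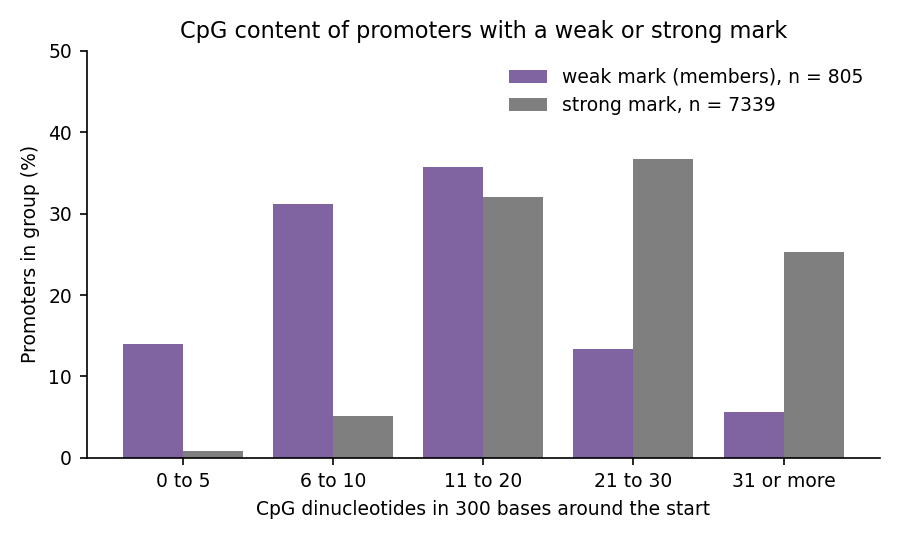
CpG dinucleotides in the 300 bases around the RefSeq start (x axis, bins) against the share of promoters in percent (y axis), for 805 weak-mark members and 7339 strong-mark promoters. Of the members, 14% fall in the lowest bin and 5.59% in the highest, against 0.804% and 25.2% of strong-mark promoters.

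Short promoter motifs also differed in frequency. A TATA box (TATAAA, either strand) was found in the 300 bases of 10.7% of members, 5.35% of strong-mark promoters and 13% of all 16375 matched promoters. A CCAAT box (CCAAT, either strand) was found in 48.7% of members, 39.9% of strong-mark promoters and 38.9% of all. Histone genes, described below, made up 26 of the 86 members with a TATA box and 35 of the 392 with a CCAAT box. The TATA and CCAAT shares were 7.61% and 42.8% in the other autosomal members, and 8.25% and 57.2% in X-linked members. A GC box (GGGCGG, either strand) was found in 51.9% of members, 72.9% of strong-mark promoters and 48.1% of all. The E-box CACGTG was found in 10.2% of members, 11.8% of strong-mark promoters and 8.15% of all. The CRE core TGACGT, on either strand, was found in 10.1% of members, 13.6% of strong-mark promoters and 9.10% of all. Matches may overlap, and each describes only the letters in this window. A start on the other strand within 1000 bases on either side was listed for 118 members (10.2%) and 2337 strong-mark promoters (25%). Members were protein coding in 90.9% and strong-mark promoters in 96.5% of windows. Long non-coding RNA genes made up 47 members (4.05%) and 204 strong-mark promoters (2.18%), and pseudogenes 18 members (1.55%) and 8 strong-mark promoters (0.0855%).

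The X chromosome held 250 of the 1160 members. These were 65.3% of its 383 expressed H3K4me3-only promoters, against 904 of 10132 (8.92%) on the autosomes. Autosomes ranged between 4.49% (chromosome 18) and 18.4% (chromosome 13), with a median of 8.47%, so no autosome came near the X. On the Y chromosome 6 of 7 such promoters were members, namely Ube1y1, Kdm5d, Uty, Ddx3y, Usp9y and Zfy2. Every expressed H3K4me3-only promoter of the Mage (7 of 7) and Xlr (5 of 5) germline multigene families was a member, as were 5 of 6 of the Rhox homeobox family. On the X lay 6 of the 7 Mage members, and all 5 each of Xlr and Rhox. Reads of near-identical copies in these families could be split by the counting, so single members are uncertain.

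**Figure D2:**
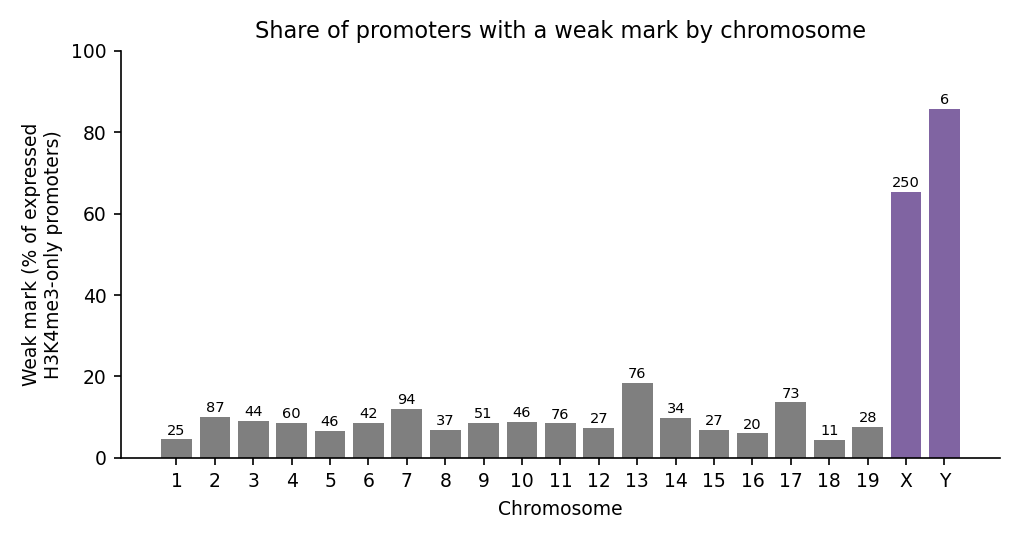
Share of expressed H3K4me3-only promoters with a weak mark (y axis, percent) on each chromosome (x axis), with the number of members above each bar. The bars of X (65.3%) and Y (85.7%) stand above that of every autosome, the highest of which is chromosome 13 at 18.4%.

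Read depth of the X was lower in input as well. The median mean input was 0.310 RPM over X-linked members and 0.551 RPM over autosomal members. It was 0.345 RPM over X-linked and 0.648 RPM over autosomal strong-mark promoters. Taken over input, the median control H3K4me3 of X-linked members was 3.44 on the log2(RPM + 0.5) scale and that of autosomal members 3.03. Over all expressed H3K4me3-only promoters the same value was 3.65 on the X and 4.22 on the autosomes. X-linked members thus lay above autosomal members over input, while the X as a whole lay below the autosomes. The part of copy number in the share of X-linked members was not tested.

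Control RNA had a median of log2 RPM 3.96 over X-linked members and of 3.06 over autosomal members. Among the X-linked members with the most RNA were Huwe1 and Uba1, genes of ubiquitin transfer and activation. They were picked after their values were seen. Huwe1 had 9.92 and 10.01 RPM of H3K4me3 in knockout cells and 6.95 and 9.09 RPM in control cells. Uba1 had 10.7 and 10.3 RPM in knockout cells and 8.88 and 11.1 RPM in control cells. Huwe1 RNA stood at 364 and 578 RPM in knockout cells and at 470 and 492 RPM in control cells. Neither gene passed limma's test in H3K4me3 or RNA, and the knockout libraries of Huwe1 lay on both sides of the control libraries in RNA.

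Histone genes of the replication-dependent clusters were the other group that stood out. Of 68 in the table, 47 met the rule without its upper threshold and 43 were members, 41 of them on chromosome 13 between 21715763 and 23934156 (mm10). Of the 43, 40 matched a RefSeq promoter, and a TATA box was in 26 (65%) and a CCAAT box in 35 (87.5%), against 7.61% and 42.8% of the other autosomal members. Their control RNA was low, with a median of log2 RPM 1.61, and these transcripts lack the poly(A) tail that most mRNAs carry. In H3K4me3 none was called lower or higher, and the median log2 change of knockout over control was 0.01 (range -1.45 to 0.46), 0.27 above the median of all windows tested. The histone median was 0.30 under median centring and 1.02 under quantile normalization. In RNA all 43 had a negative log2 change, with a median of -0.28 and a range of -0.77 to -0.01, and this sign held under median centring and quantile normalization. None passed limma's test, 6 had an unadjusted p under 0.05, and in 30 the knockout libraries both lay below the control libraries, against a background of 16% of genes. Hist1h1c, a linker histone gene, had 13.6 and 10.9 RPM of RNA in knockout cells and 24.6 and 17.5 RPM in control cells. Its change of -0.77 had an adjusted p of 0.0754 by limma, and the groups did not overlap. Many of these genes are near-identical copies, so single values are uncertain.

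The level of the mark in knockout libraries was not used by the rule. Members had a median of 4.44 and 6.45 RPM in the knockout libraries and of 7.34 and 9.09 RPM in the control libraries. Strong-mark promoters had 17.5 and 22.9 RPM in the knockout libraries and 20.1 and 22.6 RPM in the control libraries. The medians of the 2 groups of promoters stayed apart in both genotypes. Of the members, 874 (75.3%) were still at least 1.5 over input in both knockout libraries, 199 in 1 and 87 in none. Of the strong-mark promoters 9352 of 9362 were over that level in both. The share differed with the chromosome and the gene family. It was 216 of 250 (86.4%) on the X, 653 of 904 (72.2%) on the autosomes and 41 of 43 (95.3%) among histone genes. It also followed the level of the mark, with 44 of 132 members at a control log2 RPM of 1 to 2 and 355 of 367 at 3.25 to 3.5. Control libraries set these bins, the split from strong-mark promoters and the entry at 1.5 over input. Median control H3K4me3 over input was 3.11 in members and 4.26 in strong-mark promoters, so members started nearer the threshold. These shares are therefore descriptions, from which nothing is read.

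**Figure D3:**
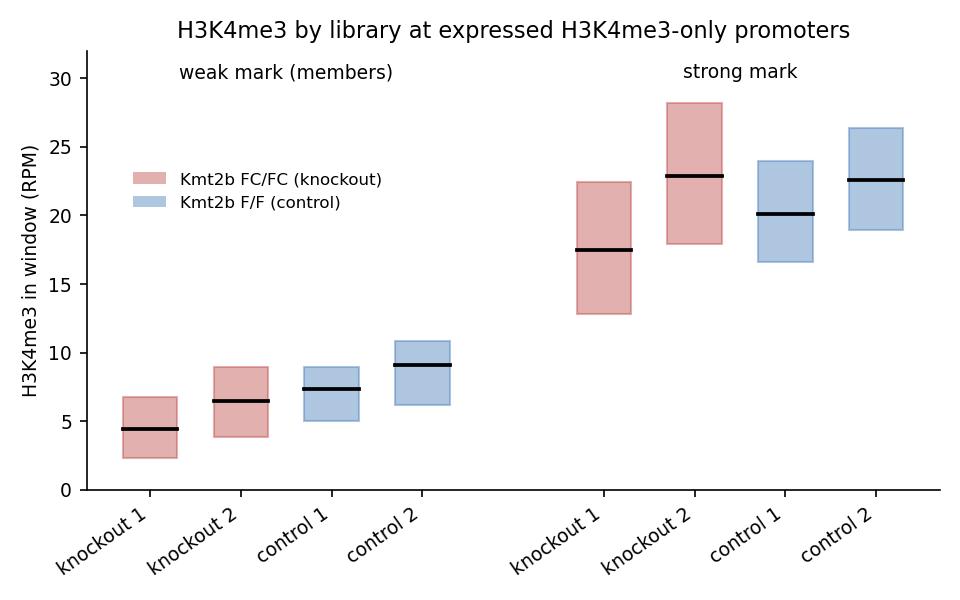
H3K4me3 in the window (y axis, RPM) by library (x axis, knockout left of control) for 1160 weak-mark members and 9362 strong-mark promoters. Boxes span the quartiles and lines the medians, which for members are 4.44 and 6.45 RPM in knockout and 7.34 and 9.09 RPM in control libraries.

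Just under the upper threshold stood Syt12, a synaptotagmin gene, with 9.27 and 13.8 RPM of H3K4me3 in control libraries, and Mfap1b with 10.8 and 11.8 RPM. Just over it stood Ska1, a kinetochore gene, with 11.004 and 11.6 RPM and Pitpnm1 with 10.1 and 12.6 RPM. Among the lowest over input were Ccdc107, Dgcr6, Grb7 and Lat.

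The H3K4me3 change of members was negative as deposited and under median centring, and positive under quantile normalization. The median log2 change was -0.54 (quartiles -0.98 and -0.15), against -0.08 in strong-mark promoters and -0.26 over all 15624 windows tested. The member median was -0.25 under median centring, which moves the median of all windows to 0.03, and turned to 0.46 under quantile normalization, which moves that of all windows to 0.01. The strong-mark median turned to 0.21 under median centring and 0.05 under quantile normalization. Of the 1160 members 978 had a negative and 182 a positive change. By limma, 71 members (6.12%) were called lower at an adjusted p under 0.05, against a background of 9.9% of windows, and 0 were called higher, against 0.0512% (1 member at an unadjusted p under 0.05, and 0 called by limma voom on the recovered reads). Under quantile normalization 0 were called lower and 162 higher, against 595 and 414 of all 15624 windows. Control libraries of this contrast chose the members, so these counts are a description from which nothing is read. The member median was between -0.76 and -0.28 when 1 library was left out. In 645 members both knockout libraries lay under both control libraries, against a background of 42.8%, and in 46 above them, against 8.98%. When members were chosen in 1 control library and compared with the other, the median was -0.64 (1425 windows chosen in replicate 1) and -0.47 (1048 chosen in replicate 2).

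The change varied with the level of the mark, without one order over all levels. The median change was -0.72 at a control log2 RPM of 1 to 2 (132 members), -0.93 at 2 to 2.5 (152), -0.66 at 2.5 to 3 (247), -0.49 at 3 to 3.25 and -0.35 at 3.25 to 3.5 (367), all as deposited. Under quantile normalization each of these medians was positive, between 0.32 and 0.62, and no order with the level was left. X-linked members had a median of -0.34 with 8 of 250 (3.2%) called lower, and autosomal members one of -0.60 with 63 of 904 (6.97%). Over all windows tested, 42 of 566 (7.42%) were called lower on the X and 1504 of 15051 (9.99%) on the autosomes. Windows under the same upper threshold whose RNA was under the floor or whose gene was not in the RNA table (552) had a median of -1.03. Their median control H3K4me3 was log2 RPM 2.76, against 3.05 in members, so the levels were not matched. The difference between these groups was not tested, and control libraries enter both the level and the change.

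**Figure D4:**
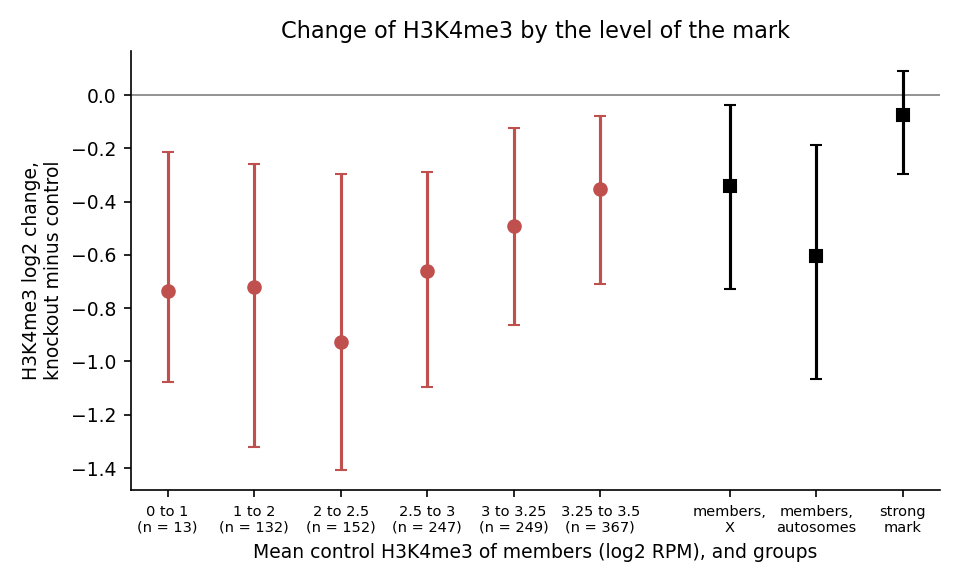
H3K4me3 log2 change, knockout minus control (y axis), for members in bins of mean control H3K4me3 in log2 RPM (circles), and for X-linked members, autosomal members and strong-mark promoters (squares). Symbols are medians and bars quartiles as deposited. The medians run between -0.93 and -0.35 over the bins, with -0.34 on the X, -0.60 on the autosomes and -0.08 for strong-mark promoters, and under quantile normalization the median of all members is 0.46 and that of strong-mark promoters 0.05.

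All 71 members called lower fell at least 2-fold, with a median log2 change of -1.98. Knockout replicate 1 weighed on them: 47 had at most 5 reads in it and 6 had none, the highest count being 15. Without it the median was -1.10, all 71 stayed negative and 16 stayed called. The largest decreases were at Arhgef26, Clvs1, Filip1, Mapk10, Gm4938, Slc17a9, Coq2, Myo1h, Dtna and Psg16, between -2.80 and -2.48. Arhgef26, a guanine nucleotide exchange factor gene on chromosome 3 (62338344 to 62462221), had 0.261 and 3.02 RPM in knockout cells and 6.18 and 6.15 RPM in control cells. The change was -2.80 (SE 0.67, limma adjusted p = 0.00558), and -1.03 (adjusted p = 0.15) without knockout replicate 1. Both knockout values lay under both control values, and the knockout libraries stood far apart from each other. Coq2, an enzyme of ubiquinone synthesis whose CpG-rich promoter is shown above, had no read and 3.56 RPM in knockout cells, against 5.69 and 5.32 RPM in control cells. Its change was -2.59 (adjusted p = 0.0093), and -0.63 (adjusted p = 0.415) without knockout replicate 1. The call was also lost under median centring (-2.30, limma adjusted p = 0.089). So were those of Arhgef26, Filip1, Mapk10 and Slc17a9 (adjusted p = 0.0619, 0.0653, 0.0661 and 0.069), while those of the others of these 10 held. Dtna, the gene of alpha-dystrobrevin, had 0.783 and 5.07 RPM in knockout cells and 12.2 and 10.4 RPM in control cells. Its call held without knockout replicate 1, at -1.15 (adjusted p = 0.044). Myo1h held likewise, at -1.63 (adjusted p = 0.03), with 0.522 and 1.81 RPM in knockout cells and 4.92 and 6.38 RPM in control cells.

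A few other members called lower were picked after their values were seen, except Dppa5a and Gpx3, which stand on the fixed lists. Dppa5a, a pluripotency-associated RNA-binding protein gene, had 0.522 and 2.65 RPM of H3K4me3 in knockout cells and 4.15 and 5.43 RPM in control cells (adjusted p = 0.0377). That call was lost under median centring (limma adjusted p = 0.0693). RNA of Dppa5a was 11.2 and 8.67 RPM in knockout cells and 8.22 and 6.92 RPM in control cells, which did not pass the test (adjusted p = 0.25). Gpx3, a secreted glutathione peroxidase gene, had 1.04 and 2.77 RPM of H3K4me3 in knockout cells and 6.27 and 7.21 RPM in control cells (adjusted p = 0.0251). Shmt1, of folate metabolism, had 1.04 and 4.52 RPM in knockout cells and 8.59 and 7.76 RPM in control cells (adjusted p = 0.0213), and Shmt1 RNA differed by -0.19 (adjusted p = 0.36). None of these 3 stayed called in H3K4me3 without knockout replicate 1. Tkt, the transketolase gene, Sirt1, a deacetylase gene, Ttn, the titin gene, and Tex19.2, a testis gene, were also called lower, with log2 changes of -1.98, -1.53, -2.29 and -2.47. Of these 4, Ttn alone stayed called without knockout replicate 1 (-1.79, adjusted p = 0.0186).

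At the other end, no positive change passed the test. The largest positive changes with groups that did not overlap included those of D030054H15Rik, Mrpl45, Vwa5a and Ifi27l1, between 0.64 and 0.84. Mrpl45, a gene of the mitochondrial ribosome, had 17.2 and 12.4 RPM in knockout cells and 8.11 and 8.76 RPM in control cells (adjusted p = 0.18). Among members with a control RNA of at least log2 RPM 5, the smallest changes were at Dynlt1b, Siah1b, Gadd45gip1, Rps4x and Zswim1. Rps4x, an X-linked ribosomal protein gene, had 9.14 and 7.60 RPM in knockout cells and 7.53 and 9.32 RPM in control cells.

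Members were less transcribed than strong-mark promoters, though the range was wide. Control RNA had a median of log2 RPM 3.25 (quartiles 1.68 and 4.85) in members and of 4.94 (3.61 and 6.07) in strong-mark promoters. At least log2 RPM 5 was reached by 263 members (22.7%) and by 48.7% of strong-mark promoters. RNA values are not divided by gene length, so they rank genes only roughly. Among the 10 members with the most RNA were Eef1a1, Gm5786, Sdc4, Tuba3b, AL807777.1, Hnrnpf, Rpl13a and Xlr5a, and several have processed copies or near-identical relatives. Eef1a1, a translation elongation factor gene, had 3551 and 3614 RPM of RNA in knockout cells and 3588 and 3656 RPM in control cells. Hnrnpf, an RNA-binding protein gene, had 608 and 685 RPM of RNA in knockout cells and 622 and 603 RPM in control cells, with 1.31 and 2.05 RPM of H3K4me3 in knockout cells and 4.15 and 4.55 RPM in control cells. In Hnrnpf RNA was high beside a mark that was low in every library. The window's size and place are not given in the sources used here, so a start outside the window could not be looked for. The RefSeq start lay within 100 bases of the deposited start for 57.1% of members and 69.0% of strong-mark promoters.

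RNA changed in more members upwards than downwards. Of 1156 members tested, 56 (4.84%) were called higher, against a background of 3.01% of 14100 genes, and 7 (0.606%) lower, against 0.312%. The median log2 change was 0.11 in members, 0.04 in strong-mark promoters and 0.06 over all genes, and for members 0.017 under median centring and 0.0016 under quantile normalization. Both knockout libraries lay under both control libraries in 190 members, against a background of 16%, and above them in 503, against 36.2%. Control RNA set the floor for members, so these counts are descriptions too. On the X 4 members were called higher and 4 lower of 248, and on the autosomes 52 and 3 of 902. Over all genes tested the X had 7 higher and 14 lower of 570, and the autosomes 418 and 30 of 13512. The member median was between 0.066 and 0.17 when 1 library was left out. Of the 56 that rose, 21 did so by at least 2-fold, and of the 7 that fell, 1.

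Transcription factors and membrane proteins were among the increases. Zic1, a zinc finger transcription factor gene on chromosome 9 (91358058 to 91365810), had 10.7 and 8.77 RPM in knockout cells and 1.98 and 2.30 RPM in control cells. The log2 change was 2.19 (SE 0.17, limma adjusted p = 0.0141), with groups that did not overlap, from the CpG-richest of the promoters shown. Its H3K4me3 was 6.53 and 6.76 RPM in knockout cells and 10.4 and 10.6 RPM in control cells (adjusted p = 0.39). Mpzl2, an epithelial adhesion molecule gene, had 6.58 and 7.42 RPM of RNA in knockout cells and 1.90 and 2.01 RPM in control cells (1.84, SE 0.16, adjusted p = 0.0141). Kirrel2, an adhesion molecule gene from a CpG-poor promoter, had 3.67 and 4.20 RPM in knockout cells and 1.56 and 1.42 RPM in control cells (1.40, SE 0.18, adjusted p = 0.0213). Prdm1, the transcriptional repressor needed to specify primordial germ cells, had 5.86 and 7.37 RPM in knockout cells and 2.57 and 2.59 RPM in control cells (1.35, SE 0.17, adjusted p = 0.0206). In all 4 genes both knockout libraries lay well above both control libraries. Under quantile normalization Zic1 and Mpzl2 stayed called by limma, and Kirrel2 and Prdm1 did not (adjusted p = 0.0546 and 0.0518).

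The 10 largest increases were taken among called members averaging log2 RPM 1 or more whose groups did not overlap. The rest of these 10 were Cd93, Mlph, Acsl5, Tmc8, Tmc6 and Gja1, between 1.19 and 1.32. Tmc6 and Tmc8, transmembrane channel-like genes, start head to head with overlapping ends on chromosome 11, at 117782198 on the minus strand and 117782076 on the plus strand. Tmc6 had 19.42 and 19.06 RPM in knockout cells and 7.72 and 9.04 RPM in control cells, and Tmc8 had 3.45 and 4.00 RPM in knockout cells and 1.35 and 1.83 RPM in control cells. The strand setting of the counts is not given in the sources used here, so overlapping reads cannot be told apart. Gja1, a connexin gene, had 3.15 and 3.02 RPM in knockout cells and 1.35 in both control libraries. Under quantile normalization Tmc6 stayed called, and Cd93, Mlph, Acsl5, Tmc8 and Gja1 did not. Without the filter on low values the calls of Cd93, Mlph, Tmc8 and Gja1 were lost, and those of Acsl5 and Tmc6 held.

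A fibroblast marker and genes of interferon response were among the calls. Col1a1, the collagen gene on the fibroblast list, had 202 and 245 RPM of RNA in knockout cells and 131 and 142 RPM in control cells (0.71, adjusted p = 0.0307). It was the 1 of 6 fibroblast-list members that was called, the others including Col6a2, Mmp2, Timp1 and Nid1, and it is part of the summed level of that list. The call was lost without control replicate 1 or 2 (adjusted p = 0.204 and 0.0654) and without the filter on low values (adjusted p = 0.0572). Of 5 interferon-response members, Gbp2 and Gbp3, guanylate-binding protein genes, were called higher (0.60 and 0.69, adjusted p = 0.0281 and 0.0266), and Oas1a, Oas1b and Ifi35 had changes of 0.42, 0.56 and 0.50 that did not pass. Without control replicate 1 or 2 the call of Gbp2 was lost (adjusted p = 0.268 and 0.197), and so was that of Gbp3 (adjusted p = 0.183 and 0.0637). Both were also lost under quantile normalization (adjusted p = 0.0526 and 0.0522). Over all genes of that list that were tested, 7 of 27 were called higher, against a background of 3.01%, and 0 lower, against 0.312%. Xist, the non-coding RNA of X inactivation, had 6.99 and 7.27 RPM in knockout cells and 4.11 and 4.15 RPM in control cells (0.79, adjusted p = 0.032). The imprinted RNA gene H19, Hoxb6, Id3 and Tcl1 also rose, by 0.75, 0.75, 0.82 and 0.92. The call of Xist was lost without control replicate 1 or 2 (adjusted p = 0.101 and 0.0749), those of H19 and Id3 without control replicate 1 (adjusted p = 0.161 and 0.144), and that of Hoxb6 without control replicate 2 (adjusted p = 0.114). Sdc4, a syndecan gene and the only one of the 10 most abundant members to pass, had 1089 and 1090.2 RPM in knockout cells and 789 and 784 RPM in control cells (0.47, adjusted p = 0.0453), a call that was lost without either control library.

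The 7 members whose RNA fell included 4 X-linked genes (1.61% of the X-linked members tested). A like share, 1.52%, was called lower at X-linked strong-mark promoters. Over all genes tested it was 2.46% on the X and 0.222% on the autosomes. Esx1, an X-linked homeobox gene of the germ line and placenta (137115397 to 137122083, minus strand), had 17.96 and 19.8 RPM in knockout cells and 35.2 and 37.5 RPM in control cells. The change was -0.95 (SE 0.11, limma adjusted p = 0.0204), without overlap of the groups. Bex2, on the same chromosome, had 8.24 and 8.27 RPM in knockout cells and 15.9 and 15.1 RPM in control cells (-0.90, SE 0.11, adjusted p = 0.0204). 4930502E18Rik and Ccnb3, the cyclin B3 gene, completed the X-linked genes, with changes of -0.99 and -0.56. On the autosomes Fabp9, a fatty acid-binding protein gene of the testis, had 0.765 and 1.099 RPM in knockout cells and 2.57 and 3.22 RPM in control cells (-1.65, adjusted p = 0.0281), and Trim54 and Mapk10 fell by 0.82 and 0.61. The calls of Trim54, Mapk10 and Ccnb3 were lost without either control library, and that of 4930502E18Rik without control replicate 2. Without the filter on low values 2 of the 7 stayed called, Esx1 and Bex2, so the call of Fabp9 was lost there. Summed RNA of the 17 differentiation genes of spermatogonia, a list that holds Esx1, was 1640 and 1813 RPM in knockout cells and 1987 and 1935 RPM in control cells, with 3 of 15 tested called lower, against a background of 0.312%. Of that list Sohlh1 and Nxf2 were members too, and neither passed.

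**Figure D5:**
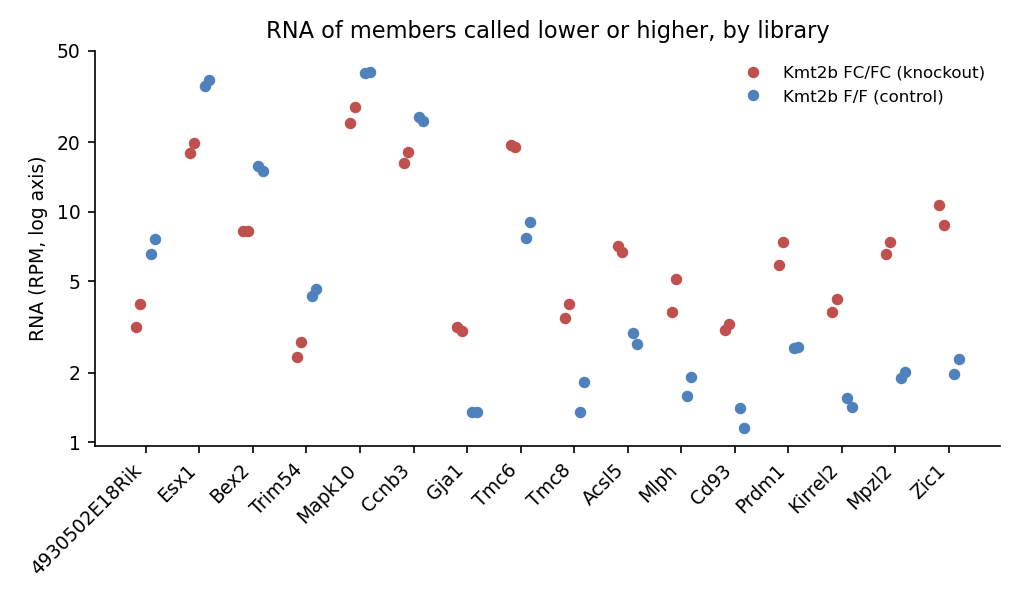
RNA (y axis, RPM, log axis) in each library for 16 members called lower or higher, ordered by log2 change, with knockout libraries left of control libraries for each gene. Esx1 lies at 17.96 and 19.8 RPM in knockout against 35.2 and 37.5 RPM in control libraries, and Zic1 at 10.7 and 8.77 against 1.98 and 2.30 RPM.

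Calls in H3K4me3 and RNA met in 3 members, beside 71 called in H3K4me3 and 56 higher and 7 lower in RNA. Whether 3 differs from chance was not tested. Mapk10, a JNK kinase gene on chromosome 5 (102907948 to 103211334, minus strand), was lower in both. Its H3K4me3 was 0.261 and 2.77 RPM in knockout cells and 5.02 and 5.71 RPM in control cells (-2.65, SE 0.69, adjusted p = 0.00874), and -0.95 (adjusted p = 0.21) without knockout replicate 1. The H3K4me3 call of Mapk10 was also lost under median centring (limma adjusted p = 0.0661). RNA of Mapk10 was 24.3 and 28.5 RPM in knockout cells and 39.9 and 40.3 RPM in control cells (-0.61, SE 0.11, adjusted p = 0.0408). Myo1h, an unconventional myosin gene, and Arhgap33, a GTPase-activating protein gene, were lower in H3K4me3 and higher in RNA. Arhgap33 had 2.35 and 4.40 RPM of H3K4me3 in knockout cells and 10.04 and 8.48 RPM in control cells (adjusted p = 0.0441), with 17.0 and 21.1 RPM of RNA in knockout cells and 7.88 and 8.88 RPM in control cells (1.18, adjusted p = 0.0204). Its H3K4me3 change of -1.52 became -1.07 (adjusted p = 0.0844) without knockout replicate 1, and the call was also lost without the filter on low values (adjusted p = 0.0733). Of the 71 members called lower in H3K4me3, 70 were tested in RNA, with a median change of 0.12 and 46 above 0. That is near all members, of which 762 of 1156 tested were above 0, with a median of 0.11. The 56 members called higher in RNA had H3K4me3 changes between -2.53 and 0.30, with a median of -0.71, against -0.54 over all members.

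Members of the germ cell marker list and the meiotic prophase list were few, and none was called in RNA. The background was 3.01% of genes higher and 0.312% lower, so nothing is read from 0 calls among so few. Of 20 germ cell markers 6 were members, namely Pou5f1, Dppa5a, Sall4, Tex19.1, Tdrd9 and Piwil4, and none was called in RNA. Tex19.1 had 360 and 369 RPM of RNA in knockout cells and 390 and 402 RPM in control cells (adjusted p = 0.52). Sall4, a zinc finger factor of undifferentiated spermatogonia, had 157 and 199 RPM in knockout cells and 167 in both control libraries, so the groups overlapped. Of the 36 listed meiotic prophase genes that have a window, 8 were members, namely Tex11, Tex12, Tex15, Hormad1, Hormad2, Rec8, Msh4 and Spata22. None was called in H3K4me3, against a background of 9.9% of windows lower, or in RNA, and their median changes were -0.32 and -0.16. Rec8, the meiotic cohesin gene, had 19.9 and 23.5 RPM of RNA in knockout cells and 30.9 and 30.3 RPM in control cells (-0.50, adjusted p = 0.068). No gene of the H3K4 methyltransferase complexes (20 in the table) or of the epithelial list (24) was a member. The remaining lists gave 4 piRNA pathway members, 3 of spermatids, 3 of glycolysis, 5 of glutathione and detoxification, 2 of cholesterol synthesis, 2 of Polycomb complexes and 1 each of p53 targets, cell cycle and blood markers. In H3K4me3 1 of these, Gpx3, was called, and in RNA none, beside the same background shares.

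H3K27me3 was low by the rule. A mean of 1 RPM was reached by 116 members, with a median log2 change of 0.53, against 0.45 over all 4807 windows tested. Both medians changed sign under median centring, to -0.054 for members and -0.13 for all windows. By limma 0 members were called higher, against a background of 0.791%, and 0 lower, against 0% (10 and 0 at an unadjusted p under 0.05, and 0 called by limma voom on the recovered reads). Kcnv2, a potassium channel gene with the smallest p, had 2.70 and 1.90 RPM in knockout cells and 1.37 and 0.275 RPM in control cells (1.88, adjusted p = 0.13), and Zfp282 had 1.76 and 1.52 RPM in knockout cells and 0.342 and 0.549 RPM in control cells (1.91, adjusted p = 0.23). In 4 members both knockout libraries lay under both control libraries, against a background of 3.14%, and in 46 above them, against 36.9%. The genes named here were chosen after their values were seen.

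H3K9me3, a mark of heterochromatin that the rule did not use, was scarce. Over its own input in control cells the median was -0.57 on the log2(RPM + 0.5) scale in members, -0.76 in strong-mark promoters and -0.65 over all windows. The median member had 3 H3K9me3 reads in each library, so these values rest on few reads and on the pseudocount of 0.5 RPM. X-linked members had a median of -0.31 and autosomal members one of -0.66, and X-linked strong-mark promoters one of -0.33. No member reached 1 in both libraries, which 501 windows of the table did. The highest was Wfdc15a, a gene of a protease inhibitor family, at 1.70 and 0.98, followed by Tcfl5, a testis transcription factor gene, at 0.71 and 0.82, and Nup62cl at 0.40 and 0.52. Wfdc15a had 1.83 and 1.99 RPM of H3K4me3 in knockout cells and 5.69 and 6.82 RPM in control cells (-1.71, adjusted p = 0.0499). Its RNA was 1.84 and 1.05 RPM in knockout cells and 3.54 RPM in both control libraries, a change of -1.35 that did not pass the test (adjusted p = 0.0502).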

How the data were processed

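Chromatin immunoprecipitation and RNA sequencing were analysed in 20 libraries. The deposited values are log2 RPM as calculated by the authors, with 1 window per gene for 16 chromatin libraries (25965 genes) and RNA per gene for 4 libraries (25067 genes). The submitters' processing notes name TopHat2 2.0.14 and Bowtie 1.1.1, besides CASAVA 1.8 and Trim Galore 0.4.0, and the build mm10. Window size, the tools' roles and the RNA strand setting are not given in the sources used here. All values were whole multiples of a step within 0.1, so reads were recovered from the deposited log2 values. A gene without reads stands at 0.9 of a read.

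Each assay was tested with limma 3.58.1 (R 4.3.3, mean-variance trend, two-sided, Benjamini-Hochberg over all genes tested) on 2 knockout against 2 control libraries, keeping chromatin windows that averaged 1 RPM or more and genes whose mean RNA was log2 RPM 0 or more. The fits were tested on simulated data. Changes are knockout minus control. Members, lists and tests were chosen with earlier results of these data known. Genes were named by size of change among called members with groups that do not overlap (10 per direction for RNA with a mean of at least log2 RPM 1, 10 for H3K4me3 decreases with at least 20 reads in each control library, and 5 positive and 5 smallest changes), by the 10 highest RNA levels, the 8 highest H3K9me3 values and the lists' called or most transcribed members. Others were named after their values were seen: further called genes, X-linked, histone and H3K27me3 examples and list members. Promoters are from RefSeq (GRCm38.p6), matched by symbol. Alternatives were median centring, quantile normalization, a pseudocount of 0.5 RPM, no filter, a replicate block, limma voom on recovered reads, H3K4me3 over input, other thresholds and leaving out each library. Those without X-linked or histone members were added after seeing the data. Some genes that this rule names are not reported here.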

Additional observations from a re-analysis of the deposited data

How the results depend on the processing

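Each group had 2 libraries, and the median member had 17 H3K4me3 reads in knockout replicate 1, the fewest of the 4 libraries of that mark. The 71 members called lower in H3K4me3 became 0 under quantile normalization, 124 with limma voom, 18 over the same-numbered input and 36 with an RNA floor of log2 RPM 2. Leaving out a library moved that count over 0 to 464, 0 without either control library, 27 without knockout replicate 1 and 464 without knockout replicate 2. The causes were not tested. Members called higher, 0 as deposited, became 3 under median centring and 162 under quantile normalization, against 642 and 414 of all windows. The H3K4me3 median kept its sign in every alternative except quantile normalization (0.46), between -0.76 and -0.28 without a library. Members over the H3K4me3 threshold in both knockout libraries numbered 737 with a pseudocount of 1 RPM, 1013 at a threshold of 1 and 897 to 1050 without a library, against 874.

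In RNA the 7 members called lower became 14 under median centring, 2 without the filter and 3 without X-linked members. The 56 called higher became 10 under quantile normalization, 27 without the filter, 27 at an H3K4me3 threshold of 3 and 35 at an RNA floor of log2 RPM 2. Leaving out a library moved these counts over 5 to 182 and 27 to 436, the highest being without a knockout library (97 and 182 lower, 436 and 289 higher). The RNA median of 0.11 was 0.017 under median centring, 0.0016 under quantile normalization and 0.066 to 0.17 without a library. The H3K27me3 median of 0.53 turned to -0.054 under median centring and -0.033 under quantile normalization, was 0.38 with the pseudocount and 0.31 without the filter, and 0.24 to 0.89 without a library. The H3K27me3 calls, 0 as deposited, were 1 higher without the filter, against 49 of all 25965 windows. The H3K9me3 median of -0.57 was -1.38 with a pseudocount of 0.1 RPM, -0.49 at an H3K4me3 threshold of 3 and -0.59 to -0.56 without a library.

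Replicate numbers are shared between groups, but the labels do not say that they pair the samples, and 2 pairs cannot show it. Differences between replicates 1 and 2 correlated across genes between genotypes at 0.15 for H3K4me3, 0.09 for RNA and 0.06 for H3K27me3. With the replicate block 246 members were called lower and 1 higher in H3K4me3, against 4037 and 70 of all 15624 windows. In RNA 22 were lower and 152 higher, against 195 and 1292 of all 14100 genes. In H3K27me3 8 were higher, against 1206 of all 4807 windows. None of the 13 H3K4me3 and 23 RNA calls tracked one by one changed sign in any alternative, and quantile normalization left 0 and 10 of them called.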
